A study of Mus musculus with 8 samples.

Results

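The genes described here encode 36 cytoplasmic adaptor proteins of focal adhesions, the sites at which integrins link the extracellular matrix to actin filaments. They were chosen by name from the 21938 protein-coding genes on chromosomes 1 to 19, X and Y of the mouse annotation, and their chromatin was read from the body of each gene and the 10 kb upstream. Accessible chromatin had been profiled by ATAC-seq, in which a transposase cuts and tags open DNA, in cultured squamous cell carcinoma (SCC) cells of mouse skin. Tumours carrying Ha-Ras as the driver gene were raised by 2-stage chemical carcinogenesis in FVB mice of the genotype K14CreER FAKflox/flox, where a keratin 14 promoter drives an inducible Cre recombinase. Focal adhesion kinase (FAK, encoded by *Ptk2*) was deleted in the cultured cells with 4-hydroxytamoxifen. The FAK-/- line lacks FAK, and the other 3 lines were made from a FAK-/- clone by retroviral expression of wild-type FAK (FAK-WT), FAK impaired in nuclear localization (FAK-nls; R177A, R178A, R190A, R191A, R216A and R218A) or kinase-deficient FAK (FAK-kd; K454R). The 3 re-expressing lines thus share whatever that clone carries, and FAK-WT cells, in which wild-type FAK comes from a retroviral construct, are the reference. Each of the 4 lines had 2 libraries.

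Focal adhesion adaptors pass force and signals inward from integrins. Talins and kindlins bind integrin tails and switch integrins on, and vinculin fastens talin to actin. The complex of integrin-linked kinase, PINCH and parvin adds a further link, alpha-actinins and filamins crosslink actin, zyxin-family and Ena/VASP proteins act on actin under tension, tensins hold mature adhesions, and CRK, DOCK, GIT and PIX proteins carry the signal to small GTPases. FAK is recruited to the same structures through talin and paxillin. Many genes of this group are known targets of serum response factor (SRF), which binds the CArG box.

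The data were lists of peaks called separately in each library, so a region could only be called or left uncalled, and no read counts were used here. The 8 lists held 24402 to 53728 peaks and were merged into 69399 regions, of which 270 lay at 35 of the 36 genes. The number of called peaks was lowest in both FAK-nls libraries, with 24402 and 24974 peaks against 32961 to 53728 in the other 6. Counts of calls are therefore given also for the 24383 strongest peaks of each library, and how far depth sets the number of calls was not tested. In a culture of many cells, a region open in fewer cells and a region less open in every cell cannot be told apart. As a check of the labelled cell type, 1 of 10 keratinocyte marker genes (*Itga6*) had a promoter region called in all 8 libraries, *Krt8* had one in 5, *Itgb4* in 3, *Krt14* and *Krt18* in 1, and *Krt5*, *Trp63*, *Cdh1*, *Sfn* and *Dsp* in none. In contrast, *Pdgfra* and *Col1a2* of 3 fibroblast markers and *Mitf* and *Pmel* of 3 melanocyte markers had one in all 8, and no leukocyte marker of 5 had one in any. Of 3 endothelial markers, *Cdh5* had one in 2 libraries and *Kdr* in 1. Regions called in the FAK-WT pair and nowhere else numbered 3 of 29 at keratinocyte, 3 of 13 at endothelial and 2 of 23 at melanocyte markers, 0 at leukocyte and fibroblast markers, and 1 of 270 at the adaptor genes, against 1381 (1.99%) of all 69399 regions. Their part in the results was not tested.

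The adaptor genes were richer in called regions than protein-coding genes at large. The median was 4.0 regions per gene and 7.08 per 100 kb of window, against 2.0 and 4.53 over all protein-coding genes. Of the 270 regions, 187 lay in introns, 46 at promoters (500 bp before to 2000 bp after a transcript start), 19 further upstream and 18 in exons. A total of 80 regions (29.6%) were called in all 8 libraries, against 25.8% of all regions, and 71 (26.3%) in a single library, against 28.6%. Of those 71, 25 came from FAK-WT replicate 1 and 20 from FAK-kd replicate 2, the libraries with the longest lists. Over all regions called in a single library, these libraries also gave the most, with 7139 and 4052.

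A promoter region was called in all 8 libraries at 24 of the 36 genes (66.7%), compared with 40.8% of 21853 genes with an annotated protein-coding transcript. Counted by region, 27 of the 46 adaptor promoter regions (58.7%) were called in all 8, against 62.4% of all promoter regions. With the strongest 24383 peaks of each library, 17 of the 36 genes (47.2%) kept a promoter call in all 8, against 31.4% of all genes. A minimum −log10 q of 3 left 12 (33.3%, against 24.6%), and a call that needed 50% cover left 8 (22.2%, against 18.0%). A further 8 genes had a promoter region in some of the libraries, and 4 (*Tln2*, *Flnc*, *Fermt1* and *Tns4*) had none. Of all genes in the comparison, 57.7% had a promoter region in any library. Where a gene had several promoter regions, its promoter calls and values by gene are those of the region called in the most libraries.

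**Figure D1:**
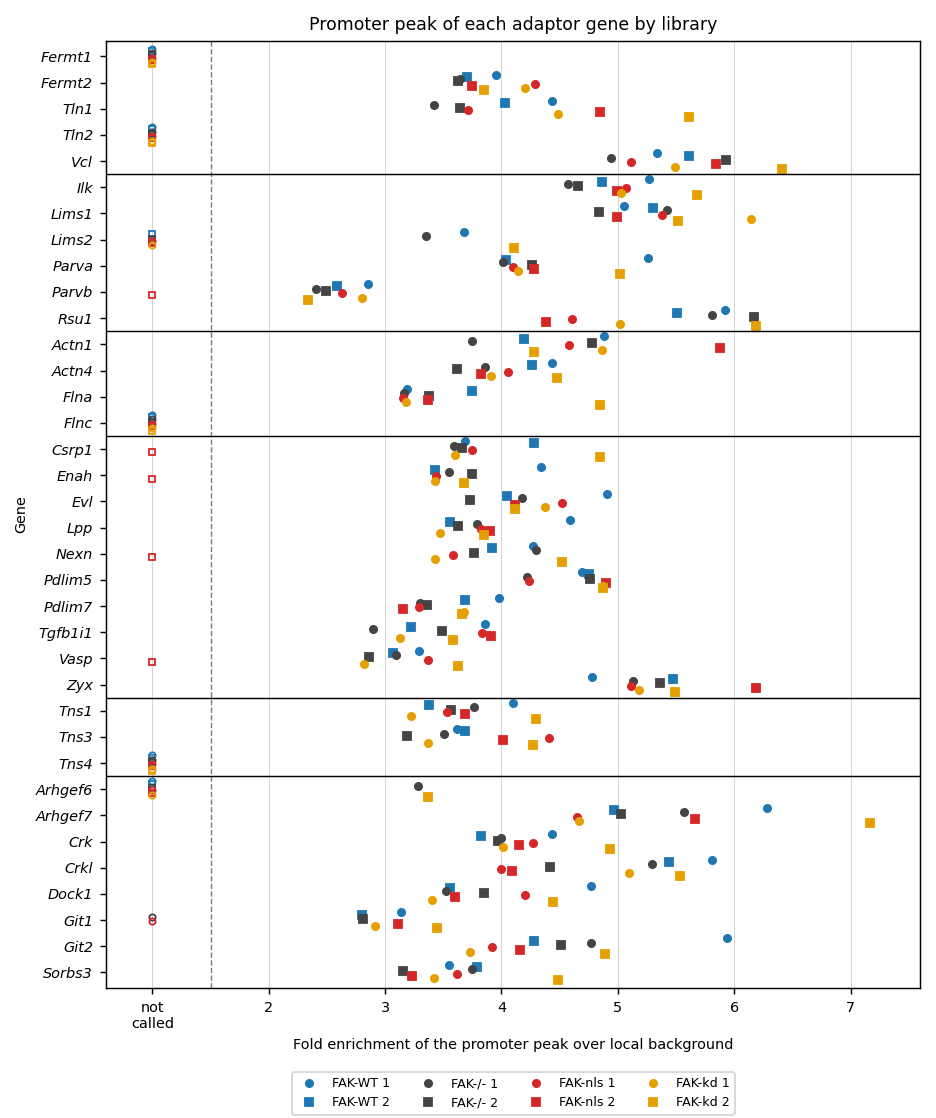
Fold enrichment over local background (horizontal axis, linear) of the promoter peak of each of the 36 genes, with colours for the 4 lines, circles for replicate 1 and squares for replicate 2; open symbols on the left mark libraries without a call. *Vcl* sits between 4.94 and 6.41 in every library, and over all peaks *Parvb*, *Csrp1*, *Enah*, *Nexn* and *Vasp* lacked a call only in FAK-nls replicate 2.

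Over all peaks, the incomplete promoters were mostly a matter of 1 library. *Parvb* (beta-parvin), *Csrp1* (a LIM protein on actin bundles), *Vasp* and *Enah* (actin-elongating Ena/VASP proteins) and *Nexn* (an actin-binding protein) were called in 7 libraries each, and FAK-nls replicate 2 was the missing one each time. FAK-nls replicate 1 had all 5 calls, with fold enrichments of 2.63, 3.75, 3.37, 3.44 and 3.58 in that order. Without FAK-nls replicate 2 the count of genes with a promoter call in every library rose from 24 to 29. Over all peaks these 5 absences were thus not shared by the replicates of FAK-nls cells. At equal peak number the promoter was called in 2 libraries at *Parvb*, 6 at *Csrp1*, 2 at *Vasp*, 1 at *Enah* and 5 at *Nexn*. Calls were then missing in other lines too.

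The promoter of *Git1*, a GTPase-activating scaffold that binds PIX and paxillin, was not called in FAK-/- replicate 1 and FAK-nls replicate 1, and had a fold enrichment of 2.80 to 3.45 in the other 6 libraries. *Lims2* (PINCH2) was called in FAK-WT replicate 1 (3.68), FAK-/- replicate 1 (3.35) and FAK-kd replicate 2 (4.11). *Arhgef6* (alpha-PIX) was called in FAK-/- replicate 1 (3.28) and FAK-kd replicate 2 (3.37) alone. Over all peaks, no gene lacked every promoter call in both libraries of 1 line and in no others. *Arhgef6* and *Lims2* were called in the fewest libraries of the genes with any promoter call. Their relatives *Arhgef7* (beta-PIX) and *Lims1* (PINCH1) were called in all 8, at 4.65 to 7.17 and 4.84 to 6.14.

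Of the integrin activators and vinculin, *Tln1* and *Fermt2* (kindlin-2) had promoter calls in all libraries, and *Fermt1* (kindlin-1, the kindlin of epithelial cells) was the single gene of the 36 with no called region in any library. *Tln2* had 15 regions, none at a promoter. The promoter region of *Vcl* (vinculin; chr14:20928868-20930741) was among the most strongly enriched. FAK-WT cells had fold enrichments of 5.34 and 5.61 there, FAK-kd cells 5.49 and 6.41, FAK-/- cells 4.94 and 5.93, and FAK-nls cells 5.11 and 5.84. These ranges overlapped, with the spread within a line as wide as the distance between lines. The sequence at its start site is shown because it holds a CArG box and a motif for TEAD factors, the partners of YAP and TAZ. It is the RefSeq promoter of *Vcl* on GRCm38.p6 (chr14:20929148-20929447, plus strand, 250 bases before to 50 after the start), and capitals mark both motifs, the CArG box first.

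Vcl promoter: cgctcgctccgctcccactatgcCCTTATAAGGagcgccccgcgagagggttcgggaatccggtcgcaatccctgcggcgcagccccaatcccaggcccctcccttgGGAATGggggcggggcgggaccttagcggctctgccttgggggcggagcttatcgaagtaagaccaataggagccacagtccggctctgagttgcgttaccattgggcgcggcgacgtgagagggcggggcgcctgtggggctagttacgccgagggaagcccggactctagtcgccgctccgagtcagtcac

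In the ILK complex the promoters of *Ilk*, *Lims1*, *Parva* and *Rsu1* were called in all libraries. *Rsu1* had the highest median fold enrichment of the 36 genes (5.66), with 5.92 and 5.51 in FAK-WT, 5.02 and 6.19 in FAK-kd, 5.81 and 6.17 in FAK-/-, and 4.61 and 4.38 in FAK-nls libraries. Both FAK-nls values were the lowest, but the log2 difference to FAK-WT after normalization was 0.17 ± 0.145 (SE; limma, described below, adjusted p = 0.605). *Crkl*, an SH2 and SH3 adaptor, was likewise lowest in FAK-nls libraries, at 4.00 and 4.09 against 4.42 to 5.81 in the others (difference 0.33 ± 0.144; limma, adjusted p = 0.290). At *Zyx* (zyxin) FAK-nls cells had 5.11 and 6.19 and the others 4.78 to 5.49, so the lines overlapped. Among the actin crosslinkers, *Actn1* and *Actn4* had medians of 4.68 and 3.99, and *Flna* (filamin A), had 3.15 to 4.85 with a median of 3.28. *Flnc* was called only in its intron and upstream. Of the tensins, *Tns1* (3.22 to 4.30) and *Tns3* (3.19 to 4.41) had promoter calls in all libraries and *Tns4* had none among its 4 regions. The *Tns1* values are from an internal transcript start (chr1:74091191-74092783). Its promoter region nearest the start of the gene (chr1:74121877-74122684) was called in 5 libraries.

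CArG boxes were then counted in all 270 regions, as exact matches in the central 300 bases. The box is named only, since its middle 6 bases may each be A or T. They were found at 3 of 46 promoter regions of the adaptor genes (6.52%) and at 0.923% of all promoter regions. Outside promoters they were found in 10 of 224 regions (4.46%) and in 1.61% of all such regions. Across RefSeq promoters, of which 42 matched 29 of the 36 genes by symbol, 3 held a CArG box (7.14%), those of *Vcl*, *Fermt2* and *Rsu1*, against 1.63% of 32851 promoters in the table. These shares rest on few regions and are given with no test. The boxes are shown with 15 bases on either side, in capitals, on the plus strand of GRCm38, for the regions called in 6 or more libraries.

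Fermt2 promoter, chr14:45530245-45530284, called in 8 libraries: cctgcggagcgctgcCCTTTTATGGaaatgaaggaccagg
Rsu1 promoter, chr2:13271363-13271402, called in 8 libraries: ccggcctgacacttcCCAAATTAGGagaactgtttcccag
Tln1 promoter, chr4:43558730-43558769, called in 8 libraries: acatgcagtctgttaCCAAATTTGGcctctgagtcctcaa
Pdlim5 intron, chr3:142372869-142372908, called in 8 libraries: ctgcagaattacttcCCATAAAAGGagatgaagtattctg
Actn1 intron, chr12:80208666-80208705, called in 7 libraries: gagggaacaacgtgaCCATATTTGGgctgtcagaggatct
Ilk intron, chr7:105739281-105739320, called in 6 libraries: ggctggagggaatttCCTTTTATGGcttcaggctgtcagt

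The other 7 boxes were at regions of *Csrp1*, *Lpp* (2), *Parva*, *Tln2*, *Tns3* and *Vcl* called in 1 to 4 libraries, and that of *Tns3* lay just past the end of a region shorter than the 300 bases read. AP-1 (TGACTCA, bound by FOS and JUN proteins) was in 33.0% of the adaptor regions outside promoters and 33.7% of all such regions. The TEAD motif (GGAATG) was in 22.8% and 20.9%, the ETS motif (CCGGAAG) in 0.893% and 1.64%, and the cAMP response element (TGACGTCA) in 0.893% and 0.439%. At promoter regions the shares for adaptor genes and for all promoter regions were 2.17% and 7.24% for AP-1, 17.4% and 10.9% for TEAD, 6.52% and 11.7% for ETS, and 2.17% and 1.92% for the cAMP response element. At RefSeq promoters they were 2.38% and 5.20%, 23.8% and 14.7%, 9.52% and 8.86%, and 4.76% and 1.79% in the same order. All were sought on both strands, and none of these motifs contains another.

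The number of adaptor regions called followed the length of the peak list. FAK-WT libraries had 206 and 155, FAK-kd libraries 131 and 194, FAK-/- libraries 184 and 155, and FAK-nls libraries 104 and 99. This is 180 ± 36.1, 162 ± 44.5, 170 ± 20.5 and 102 ± 3.54 by line (SD, n = 2 each), so that the FAK-nls libraries were lowest and the others overlapped. As shares, 76.3% and 57.4% of the adaptor regions were called in FAK-WT against 77.0% and 55.9% of all regions, and 38.5% and 36.7% in FAK-nls against 34.9% and 35.7%. In FAK-/- libraries the shares were 68.1% and 57.4% against 61.7% and 50.4%, and in FAK-kd libraries 48.5% and 71.9% against 47.1% and 65.8%. At equal peak number 94 to 109 adaptor regions were called in every library, with a mean of 97.0 ± 4.24 for FAK-WT, 106 ± 3.54 for FAK-kd, 104 ± 3.54 for FAK-/- and 101 ± 4.24 for FAK-nls (SD, n = 2 each). The low count in FAK-nls cells was therefore not seen when lists of equal length were compared. With 2 libraries a line, an exact permutation test of 2 lines gives at best a p of 1 in 3, and none was run on these counts.

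**Figure D2:**
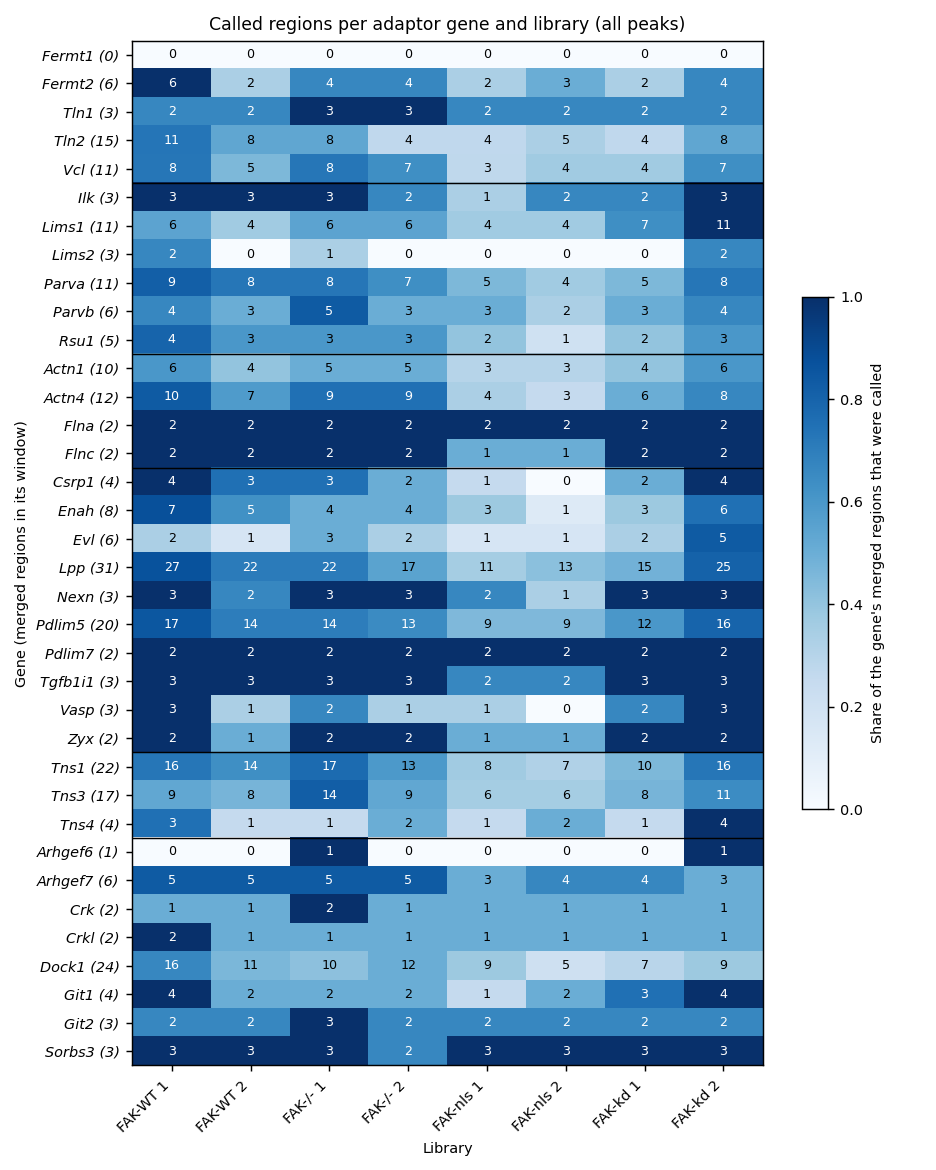
Number of called regions at each gene (rows, in groups by role, with the number of merged regions in brackets) in each of the 8 libraries (columns); the shade gives the share of the gene's regions that were called. *Lpp* ranged from 11 to 27 calls and *Tns1* from 7 to 17, with FAK-nls lowest at both, and *Flna* and *Pdlim7* had 2 calls in every library.

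Most regions lay at the long genes. *Lpp*, a zyxin relative that shuttles between adhesions and the nucleus, had 31, with 27 and 22 called in FAK-WT, 15 and 25 in FAK-kd, 22 and 17 in FAK-/-, and 11 and 13 in FAK-nls libraries. The 24383 strongest peaks gave 15 and 10, 12 and 12, 12 and 11, and 11 and 13 calls in the same order, and no line stood apart. *Dock1*, an exchange factor for Rac, had 24 regions, 12 of them called in 1 library. *Tns1* had 22, *Pdlim5* (a PDZ-LIM protein on alpha-actinin) 20 and *Tns3* 17. The tensin *Tns3* had 14 and 9 calls in FAK-/- libraries and 9 and 8 in FAK-WT. With lists of equal length these became 7 and 7 against 5 and 6, a gap of 1 or 2 regions.

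To ask which adaptor regions depended on FAK, a region called in the FAK-WT pair and absent from the pair of the other line was termed FAK-WT-only, and one with the opposite pattern reverse. Against FAK-/- cells, 8 of the 270 adaptor regions (2.96%) were FAK-WT-only, at *Enah*, *Lpp* (2), *Parva*, *Pdlim5*, *Tln2* (2) and *Tns1*, and 5 (1.85%) were reverse, at *Actn4*, *Tln1*, *Tns1* and *Tns3* (2). Over all regions the shares were 4.89% and 1.18%. With equal lists, 4 of the 270 adaptor regions were FAK-WT-only and 6 reverse, against 1389 and 1332 of all 69399 regions. Just 1 region of each set held in both settings, an intron of *Lpp* and an intron of *Tns3*.

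The *Lpp* region (chr16:24695075-24695697) was called in the FAK-WT pair with fold enrichments of 5.90 and 5.06, in the FAK-nls pair with 3.60 and 4.34, and in FAK-kd replicate 2 with 6.55. Neither FAK-/- library had a call there, nor did FAK-kd replicate 1. This pattern was the same at equal peak number, and FAK-kd replicates differed. Its central 300 bases (GRCm38, chr16:24695237-24695536, plus strand) are shown because they hold 2 AP-1 motifs, which are in capitals.

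Lpp intron: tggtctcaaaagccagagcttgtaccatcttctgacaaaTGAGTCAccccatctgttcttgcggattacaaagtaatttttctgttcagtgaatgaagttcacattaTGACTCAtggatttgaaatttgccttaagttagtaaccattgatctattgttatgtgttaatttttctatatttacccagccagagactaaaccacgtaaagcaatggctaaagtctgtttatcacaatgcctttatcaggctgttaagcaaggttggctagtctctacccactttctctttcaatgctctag

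The opposite pattern was seen in an intron of *Tns3* (chr11:8544247-8544728). Both FAK-/- libraries called it at 5.15 and 4.74 both FAK-kd libraries at 5.06 and 4.49, and no FAK-WT or FAK-nls library did. The FAK-kd replicate 2 call was lost at equal peak number and the other 3 stayed. A second *Tns3* intron (chr11:8539958-8540282) was called in the FAK-/- pair alone, at 3.98 and 3.81, as were a promoter region of *Tln1* (chr4:43560177-43560494; 2.92 and 2.94) and an intron of *Actn4* (chr7:28919880-28920164; 2.76 and 2.76). Over all regions 0.473% were called in the FAK-/- pair alone, against these 3 of 270 (1.11%). None of the 3 stayed so at equal peak number, where FAK-/- replicate 2 kept the *Tns3* and *Tln1* calls and neither library kept that of *Actn4*.

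Of the FAK-WT-only regions, 1 was called in no library outside FAK-WT. It lay in an intron of *Tln2* (chr9:67396225-67397012), with fold enrichments of 4.58 and 3.71, and its p-value put it at 31378 and 30669 in those lists. It thus fell below the 24383 strongest peaks, and over all regions 1.99% were confined to the FAK-WT pair. *Pdlim5* had an intron region (chr3:142368469-142368787) called in FAK-WT (3.48 and 3.05) and FAK-kd (4.38 and 4.69) cells and in no FAK-/- or FAK-nls library. This region kept only the FAK-kd calls at equal peak number. Introns of *Tln2* (chr9:67231324-67231990; 3.11 and 2.93) and *Enah* (chr1:181984751-181985410; 4.22 and 3.59) were called in FAK-WT cells and in FAK-kd replicate 2 (2.79 and 4.26), and no library kept either at equal peak number. A region upstream of *Tns1* (chr1:74125260-74125594), which is also the promoter of *Rufy4*, was called in FAK-WT (4.97 and 3.37) and FAK-nls replicate 1 (3.33). In the reverse set, an intron of *Tns1* (chr1:74076255-74076737) was called in FAK-/- cells at 3.53 and 3.12 and in FAK-kd replicate 2 at 4.01, and was lost in every library at equal peak number.

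To ask which regions depended on nuclear localization of FAK, FAK-WT was set against FAK-nls. A total of 42 adaptor regions at 15 genes (15.6%) were FAK-WT-only, led by *Lpp* with 9, *Tns1* with 5 and *Pdlim5* with 4, and over all regions the share was 15.3%. The reverse set held 1 adaptor region (0.370%, against 0.248% of all regions). With equal lists, 6 of the 270 adaptor regions were FAK-WT-only and 9 reverse, against 1977 and 1724 of all 69399 regions. All 6 were among the 42. These 6 lay at *Ilk*, *Parva*, *Flnc*, *Lpp*, *Pdlim5* and *Csrp1*. The 9 reverse regions lay at *Enah*, *Fermt2*, *Git1*, *Lpp*, *Pdlim7*, *Sorbs3*, *Tln1* and *Vcl*, and 1 of them, at *Vcl*, was also reverse over all peaks. The adaptor counts of 6 and 9 at equal peak number are small. Whether their balance differs from that over all regions was not tested.

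**Figure D3:**
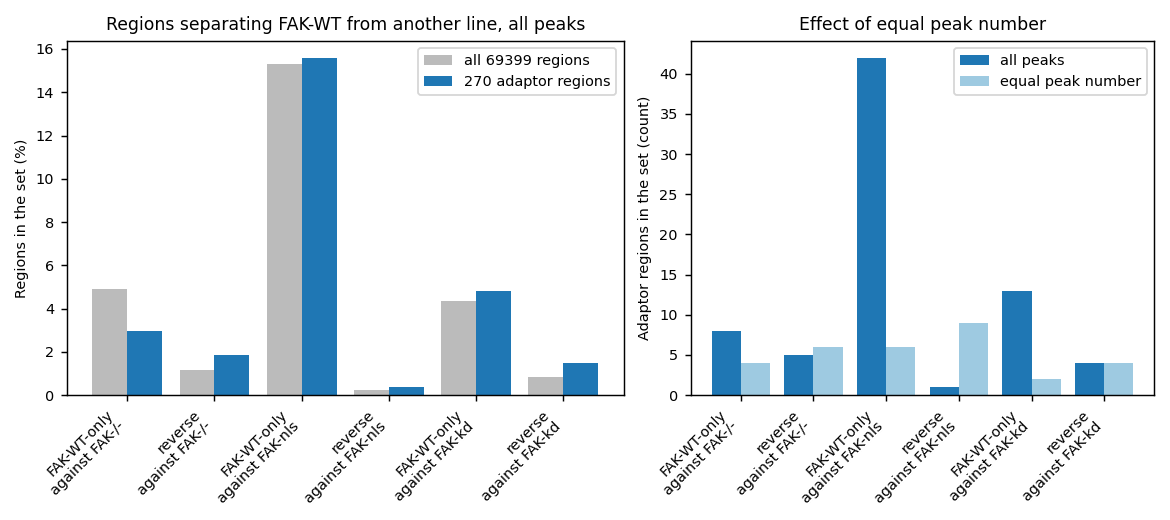
Left, percentage of all regions (grey) and of adaptor regions (blue) that were FAK-WT-only or reverse against each line over all peaks; right, number of adaptor regions in each set over all peaks and at equal peak number. The FAK-WT-only set against FAK-nls fell from 42 to 6 regions at equal peak number while the reverse set rose from 1 to 9.

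Regions called in all 6 libraries outside FAK-nls and in neither FAK-nls library numbered 10 at the adaptor genes (3.70%), against 4.12% of all regions. They lay at *Actn4* (2), *Lpp* (2), *Csrp1*, *Flnc*, *Ilk*, *Parva*, *Tgfb1i1* and *Tns1*, and 1 of those of *Lpp* (chr16:24447793-24448941) is an internal promoter. Of the 10, 3 kept this pattern with all 6 calls at equal peak number, in introns of *Ilk*, *Parva* and *Flnc*. Over all regions the pattern was seen at 2860 with all peaks and at 415 with equal peak number.

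The first lay in *Ilk* (chr7:105738962-105739426), which encodes the pseudokinase at the centre of the ILK complex. Its fold enrichment was 4.78 and 3.77 in FAK-WT, 3.48 and 4.73 in FAK-kd, and 3.67 and 4.46 in FAK-/- libraries. In *Parva* (alpha-parvin, its partner; chr7:112458388-112458926) the values were 4.50 and 4.21, 3.98 and 5.25, and 4.31 and 4.37 in the same order. In *Flnc* (filamin C; chr6:29436519-29437056) they were 5.83 and 3.79, 3.95 and 5.54, and 3.79 and 3.46. The 3 lines with a call overlapped in *Ilk* and *Parva*. In *Flnc* both FAK-/- values lay below both FAK-kd values and met those of FAK-WT at 3.79. All 3 ranked between 4278 and 20394 by p-value in the libraries that called them, above the 24383 used. The central 300 bases of these regions (GRCm38, plus strand) are shown because they are the adaptor regions with this pattern in both settings. Capitals mark a CArG box in *Ilk* and an AP-1 motif, on the minus strand, in *Parva*, and *Flnc* held none of the 5 motifs.

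Ilk intron, chr7:105739045-105739344: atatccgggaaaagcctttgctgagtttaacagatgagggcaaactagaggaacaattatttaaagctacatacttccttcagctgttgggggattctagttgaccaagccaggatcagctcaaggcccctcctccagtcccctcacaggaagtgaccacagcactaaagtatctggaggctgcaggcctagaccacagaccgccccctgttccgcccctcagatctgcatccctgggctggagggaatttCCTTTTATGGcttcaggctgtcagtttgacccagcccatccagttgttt
Parva intron, chr7:112458508-112458807: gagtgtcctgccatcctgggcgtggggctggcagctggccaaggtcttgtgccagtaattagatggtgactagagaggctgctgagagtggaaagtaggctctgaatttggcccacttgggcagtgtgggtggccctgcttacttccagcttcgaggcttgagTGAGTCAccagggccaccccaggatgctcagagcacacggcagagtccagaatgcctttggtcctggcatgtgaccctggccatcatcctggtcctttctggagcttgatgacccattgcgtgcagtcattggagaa
Flnc intron, chr6:29436638-29436937: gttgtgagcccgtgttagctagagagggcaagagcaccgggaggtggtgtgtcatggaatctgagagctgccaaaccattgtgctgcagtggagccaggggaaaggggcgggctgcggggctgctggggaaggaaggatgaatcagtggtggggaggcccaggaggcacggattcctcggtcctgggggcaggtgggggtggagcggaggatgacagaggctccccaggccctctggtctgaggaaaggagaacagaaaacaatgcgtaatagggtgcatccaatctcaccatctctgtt

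The remaining 7 regions of this pattern were weaker or lost calls at equal peak number. An intron of *Lpp* (chr16:24678799-24679568) had fold enrichments of 7.41 and 4.68 in FAK-WT, 3.63 and 7.35 in FAK-kd, and 5.49 and 4.79 in FAK-/- libraries, and at equal number it lacked FAK-kd replicate 1. A region upstream of *Csrp1* (chr1:135711084-135711600) had 4.49 and 3.93, 3.91 and 5.91, and 4.07 and 3.69 in that order, and then lacked both FAK-/- libraries. The intron of *Pdlim5* among the 6 regions named above (chr3:142332591-142333187) was not of this pattern. It had fold enrichments of 4.03 and 4.59 in FAK-WT, 3.71 in FAK-kd replicate 2, and 3.44 and 3.28 in FAK-/- libraries, and at equal peak number only the FAK-WT pair kept its calls. A region upstream of *Tgfb1i1* (Hic-5, a paxillin relative; chr7:128244097-128245007) ranged from 2.60 to 4.50 and kept 5 of 6 calls. The regions at *Actn4* and *Tns1* kept 1 call each and the internal *Lpp* promoter none.

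The single reverse region against FAK-nls lay in an intron of *Vcl* (chr14:20964250-20964722), called in the FAK-nls libraries at 3.75 and 4.43 and in FAK-kd replicate 2 at 3.80. Among the strongest peaks it was called in the FAK-nls pair alone.

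**Figure D4:**
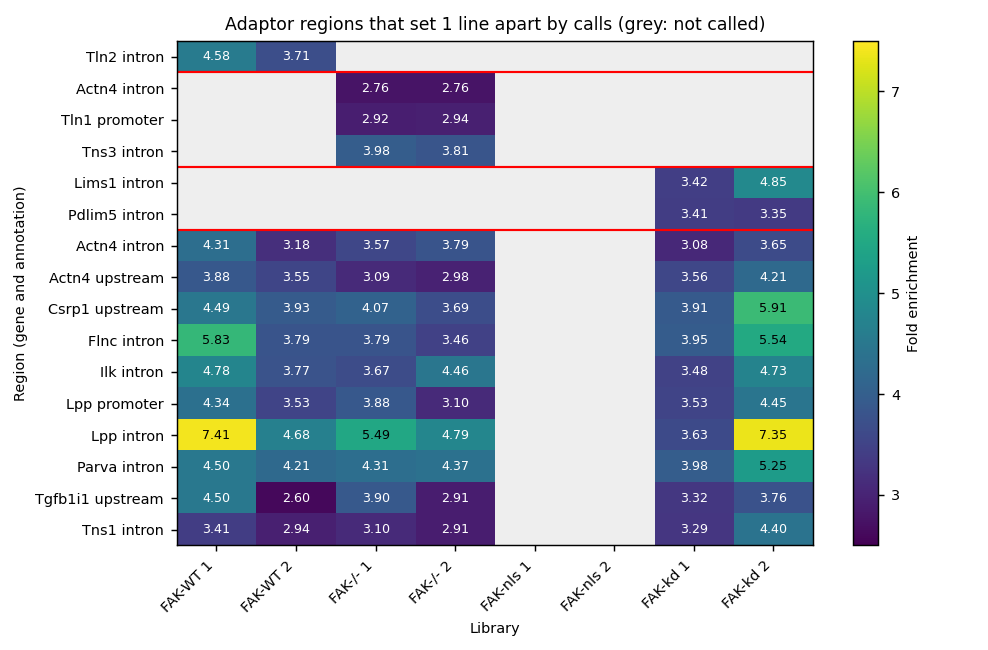
Fold enrichment (colour and number) in each of the 8 libraries at the 16 adaptor regions that set 1 line apart by calls, with grey for no call; red lines divide regions called only in FAK-WT, only in FAK-/-, only in FAK-kd, and in all but FAK-nls. The 10 regions missing in FAK-nls ranged from 2.60 to 7.41 where called.

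To ask which regions depended on kinase activity, FAK-WT was set against FAK-kd. There were 13 FAK-WT-only adaptor regions (4.81%, against 4.33% of all regions), at *Dock1*, *Lpp*, *Parva*, *Pdlim5*, *Rsu1*, *Tln2*, *Tns1*, *Tns3* and *Vcl*. The reverse set held 4 (1.48%, against 0.830%), at *Lims1*, *Pdlim5*, *Tns3* and *Vcl*. With equal lists, 2 of the 270 adaptor regions were FAK-WT-only and 4 reverse, against 1250 and 1063 of all 69399 regions. None of these 6 was in the same set over all peaks. In an intron of *Rsu1*, a partner of PINCH1 (chr2:13229443-13230067), the fold enrichment was 6.19 and 3.51 in FAK-WT and 3.55 and 3.91 in FAK-/- cells, with no call in FAK-nls or FAK-kd. Only FAK-WT replicate 1 called it at equal peak number. An intron of *Tln2* (chr9:67544597-67545351) had the same pattern of calls, at 4.57 and 3.48 in FAK-WT and 3.03 and 3.24 in FAK-/- cells. Introns of *Lpp* (chr16:24619382-24620143; 4.58 and 3.72) and *Dock1* (chr7:134836966-134837340; 4.53 and 3.55) were called in FAK-WT and in 1 FAK-/- library each (3.60 and 3.17). No library kept these 3 at equal peak number. In the reverse set, an intron of *Vcl* (chr14:20993170-20993658) was called in the FAK-kd libraries at 4.02 and 3.52 and in FAK-/- replicate 1 at 4.53. An intron of *Lims1* (chr10:58396764-58397171; 3.42 and 4.85) and one of *Pdlim5* (chr3:142350331-142350841; 3.41 and 3.35) were called in the FAK-kd pair alone, as 0.317% of all regions were. Only FAK-kd replicate 2 kept the *Lims1* call at equal peak number. The FAK-kd replicates had 32961 and 45956 peaks, and no adaptor region separated FAK-kd from FAK-WT in both settings.

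By role, the share of regions called in all 8 libraries ran from 25.7% in the integrin activators and vinculin (9 of 35) to 32.6% in the tensins (14 of 43). The share over all regions was 25.8%. The LIM, PDZ-LIM and Ena/VASP proteins had 24 of 82, the signalling adaptors 14 of 45, the ILK complex 11 of 39 and the actin crosslinkers 8 of 26. At equal peak number the signalling adaptors had 14 to 20 calls in a library, the ILK complex 13 to 19, the LIM, PDZ-LIM and Ena/VASP proteins 30 to 37 and the actin crosslinkers 9 to 12, and in none of these 4 did both FAK-WT libraries lie above or below all others. The tensins had 14 and 14 calls in FAK-WT, below the 15 to 18 of the other 6 libraries. Over all 36 genes FAK-WT libraries had 100 and 94 calls and the others 98 to 109, and the difference at tensins was not tested. For the integrin activators and vinculin, the calls numbered 8 and 7 in FAK-WT, 11 and 8 in FAK-kd, 10 and 9 in FAK-/-, and 11 and 14 in FAK-nls libraries.

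Where a region was called in all 8 libraries, the size of the signal could be compared. Log2 fold enrichment at the 17917 such regions, 80 of them at adaptor genes, was tested with limma after quantile normalization, with Benjamini-Hochberg adjustment over all 17917. No adaptor region passed an adjusted p of 0.05 in any comparison by limma. Over all regions, 0.00558% passed against FAK-/- (1 region), 0 against FAK-nls, 0.0112% against FAK-kd (2) and 0.0112% in the F test over the 4 lines (2). At an unadjusted p under 0.05 there were 5 adaptor regions against FAK-/-, 17 against FAK-nls, 4 against FAK-kd and 9 in the F test. These were 6.25%, 21.2%, 5.00% and 11.2% of the 80, and the shares over all regions were 6.33%, 15.4%, 5.36% and 13.5%. The median difference of the 80 (FAK-WT minus the other line, log2) was -0.026, -0.007 and -0.010, and over all regions it was -0.005, -0.011 and -0.007. All 5 against FAK-/- were lower in FAK-WT, those against FAK-nls were 9 higher and 8 lower, and those against FAK-kd 2 and 2. The same split over all regions is not given here, so these directions cannot be called particular to the adaptor genes.

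**Figure D5:**
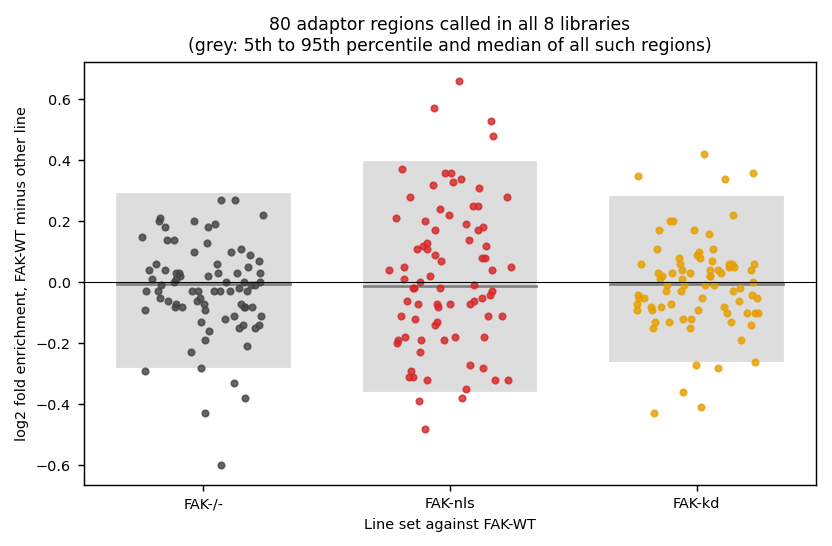
Difference in log2 fold enrichment (FAK-WT minus the other line, after quantile normalization) at each of the 80 adaptor regions called in all 8 libraries (points), with the range from the 5th to the 95th percentile and the median of all 17917 regions in grey. Most points lie within the grey range, and the values run from -0.60 to 0.27 against FAK-/-, -0.48 to 0.66 against FAK-nls and -0.43 to 0.42 against FAK-kd.

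The adaptor region with the lowest adjusted p lay in an intron of *Tns3* (chr11:8589274-8589971). Its fold enrichment was 7.26 and 5.19 in FAK-WT, 5.04 and 6.67 in FAK-kd, 5.94 and 6.83 in FAK-/-, and 3.45 and 3.76 in FAK-nls libraries. The FAK-nls pair was thus lowest. The log2 difference between FAK-WT and FAK-nls was 0.66 ± 0.157 (SE; limma, adjusted p = 0.101, and 0.0676 to 0.454 over its alternatives), which did not pass the threshold. In an intron of *Lims1* (chr10:58333364-58334119) the FAK-nls libraries were also lowest, at 3.52 and 3.31 against 3.75 to 6.05 in the others, with a difference of 0.57 ± 0.169 (limma, adjusted p = 0.144, and 0.0922 to 0.434 over its alternatives). An intron of *Parvb* (chr15:84235218-84236102) had 5.51 and 4.90 in FAK-WT and 6.04 and 6.53 in FAK-nls cells, with a difference of -0.48 ± 0.139 (limma, adjusted p = 0.142, and 0.143 to 0.709 over its alternatives).

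Against FAK-/-, an intron of *Fermt2* (chr14:45491796-45492540) differed most. It had 7.23 and 3.51 in FAK-WT and 7.46 and 6.87 in FAK-/- cells, so that FAK-WT replicate 1 lay within the FAK-/- range and replicate 2 below it. The difference was -0.60 ± 0.208 (limma, adjusted p = 0.677, and 0.131 to 1.000 over its alternatives). In an intron of *Tns1* (chr1:73947363-73948048) FAK-WT cells had 5.56 and 3.81 and FAK-/- cells 6.23 and 5.38, which overlapped (difference -0.43 ± 0.172; limma, adjusted p = 0.696, and 0.192 to 1.000 over its alternatives). The *Sorbs3* exon (chr14:70195722-70196564) had 5.02 and 4.73 in FAK-WT and 7.06 and 5.06 in FAK-/- cells, with both FAK-/- values above (difference -0.38 ± 0.166; limma, adjusted p = 0.747, and 0.0685 to 1.000 over its alternatives). Against FAK-kd, an intron of *Lpp* (chr16:24490477-24491659) had 4.12 and 3.30 in FAK-WT and 4.63 and 5.15 in FAK-kd cells, with no overlap (difference -0.41 ± 0.149; limma, adjusted p = 0.789, and 0.365 to 1.000 over its alternatives). An intron of *Arhgef7* (chr8:11822740-11823418) had 6.79 and 5.21 against 3.59 and 5.26, which overlapped (difference 0.42 ± 0.161; limma, adjusted p = 0.823, and 0.192 to 1.000 over its alternatives). *Tln1* had more than 1 promoter region. That at the start of the gene (chr4:43562024-43562849) had 4.43 and 4.03 in FAK-WT and 4.49 and 5.61 in FAK-kd libraries. It had 3.42 and 3.64 in FAK-/- libraries, the lowest there, and 3.71 and 4.85 in FAK-nls libraries. The promoter region with the CArG box shown above (chr4:43558488-43559239) lies at an internal transcript start. This internal region had 2.84 and 2.55 in FAK-WT, 3.41 and 3.18 in FAK-kd, 3.06 and 3.03 in FAK-/-, and 3.42 and 3.47 in FAK-nls libraries. Both FAK-WT libraries were the lowest of the 8, with a difference to FAK-nls of -0.35 ± 0.107 (limma, adjusted p = 0.156, and 0.0948 to 0.451 over its alternatives). The difference was -0.27 ± 0.107 to FAK-kd (limma, adjusted p = 0.843, and 0.575 to 1.000 over its alternatives) and -0.23 ± 0.107 to FAK-/- cells (limma, adjusted p = 0.779, and 0.367 to 1.000 over its alternatives), and none of the 3 passed the threshold.

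With peak coverage (log2 pileup) in place of fold enrichment, 6 adaptor regions passed the limma F test over the 4 lines at 0.05, and 1000 of all 17917 regions did. They lay at *Tns1*, *Pdlim5* (2), *Flnc*, *Tns3* and *Sorbs3* (vinexin, which binds vinculin), with adjusted p from 0.0133 to 0.0450 by limma. The *Tns3* region was the one described above, with a pileup of 26.0 and 12.5 in FAK-WT, 13.6 and 17.8 in FAK-kd, 19.4 and 18.6 in FAK-/-, and 5.69 and 5.90 in FAK-nls libraries. The *Sorbs3* exon had 12.7 and 13.7, 14.6 and 15.8, 25.5 and 17.8, and 6.17 and 6.13 in the same order. In both, the FAK-nls libraries were lowest, as they were at 4 of the 6 regions. At the *Pdlim5* introns FAK-WT cells were highest instead, with 36.4 and 21.6 against 13.5 to 17.6 in the other 6 libraries at the first (chr3:142280432-142281673). At the second (chr3:142372467-142373265) they had 45.1 and 22.6, and the other 6 libraries lay below both, down to 11.5. In both, FAK-/- replicate 2 was the lowest library. Both FAK-nls libraries had the lowest deposited pileup at 14451 (80.7%) of the 17917 regions and at 72 of the 80 adaptor regions, and the test was run after quantile normalization. Whether the deposited pileup was scaled to depth is not stated in the sources used here. By fold enrichment these 6 had adjusted p from 0.143 to 0.846 in the F test by limma.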

How the data were processed

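ATAC-seq reads had been aligned by the authors to mm10 with the bcbio pipeline, and peaks were called per library with MACS2 (version 2.1.1 in the submitters' processing notes) in broad mode. Deposited values per peak were the pileup (coverage signal, not scaled between libraries as far as stated), the fold enrichment (a ratio of pileup to local background), and, as −log10, the p-value and q-value of the call. After peaks outside chromosomes 1 to 19, X and Y were left out, those overlapping by at least 1 bp were merged. Genes came from GENCODE M21 (GRCm38). The depth that the study gives per library was not used here, and the lists hold no counts for an interval.

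The 36 genes, their roles, the marker lists and the tests were chosen with earlier results of these data known. Values per library are given for promoters not called in all 8 libraries, the genes with most regions, the best-ranked regions of each set, and the regions with the lowest limma p. Alternatives were equal peak number, a minimum −log10 q of 3, peaks of 500 bp, 50% cover, other gene and promoter windows, other scalings, a replicate block, and leaving out each library. Replicates are biological by the study's own description, with 2 per line. The limma fit (limma 3.58.1, R 4.3.3; Python 3.11.15) used all 8 libraries.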

Additional observations from a re-analysis of the deposited data

How the results depend on the processing

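The counts of calls depended on the length of the peak lists and on what counts as a call. With equal peak number (regions merged from those peaks alone), FAK-WT-only and reverse adaptor regions numbered 4 and 6 for FAK-/-, 2 and 4 for FAK-kd, and 6 and 10 for FAK-nls. With a minimum −log10 q of 3, the reverse sets held 3 regions for FAK-/-, 1 for FAK-kd and 0 for FAK-nls, the FAK-WT-only set against FAK-kd 4, regions called in all libraries 36, and genes with a promoter call in all libraries 12. When a call needed 50% cover, these last 2 were 27 and 8, the FAK-WT-only set against FAK-/- 17 and the reverse set against FAK-nls 0. Peaks of 500 bp gave 2 in the latter. With 50 kb upstream the FAK-WT-only sets held 14 against FAK-/- and 64 against FAK-nls. Leaving out 1 library asks for fewer calls by construction and raised these counts or left them as they were. FAK-WT-only regions ranged from 12 to 43 against FAK-/- (23 without FAK-/- replicate 1, 43 without FAK-WT replicate 2), 48 to 92 against FAK-nls (92 without FAK-WT replicate 2) and 15 to 42 against FAK-kd (33 without FAK-kd replicate 2, 42 without FAK-WT replicate 2). Reverse regions ranged from 6 to 24 against FAK-/- (24 without FAK-/- replicate 2, 19 without FAK-WT replicate 1, 13 without FAK-/- replicate 1), 1 to 3 against FAK-nls (3 without FAK-nls replicate 2, 2 without FAK-WT replicate 1) and 4 to 32 against FAK-kd (32 without FAK-kd replicate 1, 13 without FAK-WT replicate 1). No adaptor region passed limma at 0.05 under any alternative run except log2 pileup, with 6 in the F test. The difference between replicates 1 and 2 had correlations of -0.202 to 0.055 over 6 pairs of lines. These were taken after quantile normalization at regions called in all 8 libraries, where library-wide shifts are removed. They cannot show whether same-numbered replicates share a batch, and the labels give only a number. With a replicate block 0 adaptor regions passed in each comparison. The named limma regions kept their direction in all 143 alternatives run, but not their size. They had been picked by lowest p in these same data, which favours a kept direction. A replicate block, or leaving out a library of a line outside the comparison, can hardly move the difference. The kept direction is therefore not separate support. Without FAK-WT replicate 2 the log2 difference was -0.19 at *Fermt2* and -0.26 at *Tns1*, and it was -0.99 at *Fermt2* without FAK-WT replicate 1. It was -0.20 at *Sorbs3* without FAK-/- replicate 1 and 0.25 at *Arhgef7* without FAK-kd replicate 1. With log2 pileup it was -0.90 at *Fermt2*, -0.89 at *Sorbs3*, -0.63 at *Lpp*, 0.80 at *Arhgef7* and -0.10 at *Parvb* (-0.27 there without scaling). At *Tln1* it was -0.56 to FAK-nls and -0.43 to FAK-/- with log2 pileup, and -0.54 to FAK-nls with median centring. The sequencing depth that the study gives for each library was not used here, and a region without a call may be open below the calling threshold.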

Other observations

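Among 21 other adhesion adaptors that were looked up in the same way, 12 had a promoter region called in all 8 libraries, against 40.8% of protein-coding genes. In any library, 18 of the 21 had one, against 57.7% of protein-coding genes. Of their 139 regions, 33 (23.7%) were called in all 8, against 25.8% of all regions. *Sorbs2*, a relative of vinexin, had 13 regions with none called in all 8. Calls in the FAK-WT pair and in no other library were seen at 6 of them, against 1.99% of all regions. This gene was singled out after its values were seen, and *Sorbs3* had no region of that pattern. *Pxn* (paxillin) had a promoter call in 7 libraries.

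Of the 270 adaptor regions, 8 also lay at the promoter of a neighbouring gene, so that their calls cannot be given to the adaptor gene alone. They include the promoter regions that *Tln1* shares with *Creb3*, *Ilk* with *Rrp8* and *Git2* with *Ankrd13a*, all called in all 8 libraries.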
